A study of Mus musculus with 6 samples.

Results

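The dividing leukocytes of the mouse kidney are described here. They were 366 of 30052 droplet barcodes (1.22%), and they were chosen by measured values. A barcode, which stands for the RNA of 1 droplet and usually of 1 cell, was kept with at least 500 unique molecular identifiers (UMIs, counts of captured RNA molecules), at least 200 genes and at most 15% of UMIs from mitochondrial genes. It was called dividing when at least 3 of the 6 genes Mki67, Top2a, Birc5, Pclaf, Ube2c and Hist1h1b had a UMI. It was then placed in the T lineage (2 or more UMIs of Cd3d, Cd3e and Cd3g, parts of the T cell receptor complex), otherwise in the B lineage (1 or more UMIs of Cd79a, part of the B cell receptor), otherwise among macrophages (C1qa, C1qb and C1qc, the chains of complement C1q, at 0.3% or more of UMIs), and otherwise among the other barcodes. By this assignment 290 of the dividing barcodes were macrophages, 21 were T cells, 3 were B cells and 52 fell in none of these.

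The study measured RNA in single cells from kidneys of C57BL/6J mice aged 8 weeks, sorted for CD45, a surface protein of leukocytes, and also counted 6 antibody tags on the cell surface. The 3 rhabdomyolysis libraries came from mice with acute kidney injury after rhabdomyolysis, the breakdown of skeletal muscle, whose released myoglobin harms the kidney tubules. The 3 control libraries came from mice of the same strain and age. How the injury was brought about, how long before sampling, and whether each library came from a separate mouse are not given in the sources used here, and p-values then cover only how far these libraries vary, which may be technical.

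A dividing cell copies its DNA in S phase and parts the copies in G2 and M phase, and each phase has its own genes. The S phase genes make nucleotides and the replication machinery, and E2F transcription factors turn many of them on. The G2 and M phase genes build the spindle, the kinetochores and the cyclins that drive mitosis, and many are held silent or turned on through a CHR element (cell cycle genes homology region) bound by the DREAM and B-MYB complexes, often near CCAAT boxes bound by NF-Y. Tissue macrophages, dendritic cells and lymphocytes can all divide in place, and self-renewal of resident macrophages is well known in several organs, the kidney among them. Of the 6 genes of the rule, Mki67 codes for a protein that coats mitotic chromosomes, Top2a untangles DNA, Birc5 (survivin) belongs to the chromosomal passenger complex, Pclaf binds the replication clamp PCNA, Ube2c passes ubiquitin for the anaphase promoting complex, and Hist1h1b is a replication-dependent linker histone.

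The promoters of 5 of these genes are shown because they hold the elements that set the phases apart. Each window runs from 250 bases before to 50 bases after the RefSeq start of the gene (build GRCm38.p6, read 5′ to 3′ on the gene's strand). Capitals mark the letters searched on both strands, which were TTTGAA or TTCGAA for the CHR element, CCAAT for the CCAAT box, and TTTCGCGC, TTTGGCGC or TTTCCCGC for an E2F type element; no base of these windows lay in 2 motifs. The windows of the G2 and M phase genes Mki67 (chr7:135716330-135716629, minus strand), Ccnb2 (chr9:70421505-70421804, minus strand) and Cenpa (chr5:30666636-30666935, plus strand) come first, followed by the S phase windows of Pclaf (chr9:65890073-65890372, plus strand) and Mcm3 (chr1:20820263-20820562, minus strand).
Mki67: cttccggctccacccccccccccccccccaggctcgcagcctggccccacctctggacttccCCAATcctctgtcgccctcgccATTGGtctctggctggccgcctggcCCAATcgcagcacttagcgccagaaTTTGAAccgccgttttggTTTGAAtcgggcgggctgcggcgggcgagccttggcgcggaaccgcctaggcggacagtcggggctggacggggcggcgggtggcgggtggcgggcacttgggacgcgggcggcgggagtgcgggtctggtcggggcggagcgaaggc
Ccnb2: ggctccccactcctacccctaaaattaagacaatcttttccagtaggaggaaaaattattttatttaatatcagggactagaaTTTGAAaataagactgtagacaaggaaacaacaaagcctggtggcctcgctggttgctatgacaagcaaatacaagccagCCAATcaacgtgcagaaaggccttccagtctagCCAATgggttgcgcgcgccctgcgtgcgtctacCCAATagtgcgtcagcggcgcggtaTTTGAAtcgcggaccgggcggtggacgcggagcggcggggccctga
Cenpa: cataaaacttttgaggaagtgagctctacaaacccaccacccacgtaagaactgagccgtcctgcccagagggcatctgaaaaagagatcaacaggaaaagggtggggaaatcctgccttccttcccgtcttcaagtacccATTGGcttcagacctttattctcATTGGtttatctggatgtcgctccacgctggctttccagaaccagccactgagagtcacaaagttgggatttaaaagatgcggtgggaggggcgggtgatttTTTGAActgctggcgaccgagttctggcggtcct
Pclaf: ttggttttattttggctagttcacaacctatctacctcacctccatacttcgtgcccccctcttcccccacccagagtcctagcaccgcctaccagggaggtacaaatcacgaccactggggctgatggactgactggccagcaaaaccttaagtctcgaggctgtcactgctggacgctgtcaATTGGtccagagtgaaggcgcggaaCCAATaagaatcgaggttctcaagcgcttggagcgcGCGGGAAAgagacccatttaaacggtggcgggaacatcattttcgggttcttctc
Mcm3: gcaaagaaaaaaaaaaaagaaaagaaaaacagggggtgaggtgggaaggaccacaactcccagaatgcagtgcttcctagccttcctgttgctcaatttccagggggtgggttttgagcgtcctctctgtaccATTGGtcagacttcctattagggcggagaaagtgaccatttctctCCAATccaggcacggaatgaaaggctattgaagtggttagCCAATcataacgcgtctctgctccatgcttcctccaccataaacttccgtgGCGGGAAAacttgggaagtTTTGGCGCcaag
Mki67 had a pair of CHR matches at 116 and 98 bases before the start, Ccnb2 had matches at 167 bases before and 5 bases after it, and Cenpa had 1 at 17 bases after it. Pclaf and Mcm3 had no CHR match in these windows; Pclaf had an E2F type match 5 bases before the start, and Mcm3 had matches 20 and 39 bases after it. Over all 27025 promoter windows of the table, 19.4% held a CHR match, 37.9% a CCAAT box and 1.91% an E2F type match. Among the 31 of 36 listed G2 and M phase genes with a window, 25 (80.6%) held a CHR match, 24 (77.4%) a CCAAT box and 2 (6.45%) an E2F type match. Among the 26 of 32 listed S phase genes with a window, 4 (15.4%) held a CHR match, 16 (61.5%) a CCAAT box and 10 (38.5%) an E2F type match. These matches describe the letters of the windows and are no evidence of binding in these cells.

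The libraries held between 10816727 and 22656666 gene UMIs, and the kept barcodes had median depths of 1462 to 1977 UMIs in the rhabdomyolysis libraries and 1795 to 2999.5 UMIs in the control libraries. Barcodes poor in the nuclear RNA Malat1 (under 0.1% of UMIs) were more frequent among the barcodes that did not divide in rhabdomyolysis, at 66.9% to 75.3%, than in control, at 28% to 54.3%. Over the 15 pairs of libraries, 112 barcode sequences were shared against 55.0 expected from their numbers, and none of the shared pairs was dividing in both libraries. Rhabdomyolysis library 3 stood apart in its number of dividing barcodes, so the results that rest on it are given with and without it.

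Just inside the rule, the 167 barcodes with exactly 3 of the 6 genes had a mean of 46.7 UMIs per 10000 from the S phase and G2 and M phase lists, neither of which holds a gene of the rule. Just outside it, the 328 barcodes with 2 of the genes had 30.8 UMIs per 10000, and the 27982 barcodes with none had 8.20 UMIs per 10000. Levels are given in CPM, the UMIs of a gene scaled to the same total in each sum of barcodes. Stmn1 (stathmin), a microtubule regulator and a marker of proliferating cells that the rule did not use, was at 1041, 645 and 1294 CPM in the dividing macrophages of rhabdomyolysis libraries 1, 2 and 3, and at 1673, 2269 and 1536 CPM in those of control libraries 1, 2 and 3. In all other macrophages Stmn1 lay between 34.8 and 124 CPM in rhabdomyolysis and between 33.2 and 58.3 CPM in control. In each of the 4 libraries with 20 or more dividing barcodes, 35 of the 36 G2 and M phase genes and all 32 S phase genes were higher in dividing barcodes than in the rest. By these lists the label of proliferating cells held in those 4 libraries, which is a description, since the rule selected on genes of this kind. Rhabdomyolysis libraries 1 and 2 had 11 and 5 dividing barcodes, and both lists summed higher in these than in the rest. The G2 and M phase list was at 1809 against 364 CPM in library 1 and 1935 against 330 CPM in library 2. The S phase list was at 3120 against 447 CPM and 580 against 338 CPM. In library 1 the barcodes with exactly 3 rule genes had 50.2 list UMIs per 10000, above the 30.5 of those with 2. In library 2 the 3 barcodes with exactly 3 rule genes had 16.3, below the 18.4 of the 8 barcodes with 2 and above the 6.62 of those with none. With so few barcodes the label remains uncertain in libraries 1 and 2.

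How many leukocytes divided differed mostly between single rhabdomyolysis libraries. Of the kept barcodes, 11 of 3363 (0.327%), 5 of 4972 (0.101%) and 171 of 6474 (2.64%) were dividing in rhabdomyolysis libraries 1, 2 and 3, against 57 of 4962 (1.15%), 56 of 4934 (1.13%) and 66 of 5347 (1.23%) in control libraries 1, 2 and 3. The control shares lay close together, while rhabdomyolysis libraries 1 and 2 lay below all controls and library 3 above them. The exact 95% binomial intervals, which cover counting error only, reached from 0.0327% to 0.584% over rhabdomyolysis libraries 1 and 2, from 2.26% to 3.06% for rhabdomyolysis library 3, and from 0.858% to 1.57% over the controls. The mean share was 1.02 ± 1.41% in rhabdomyolysis and 1.17 ± 0.0538% in control (SD, n = 3 each), a difference of -0.15 percentage points (two-sided exact permutation test, p = 1). Without rhabdomyolysis library 3 the mean share was 0.214 ± 0.160% in rhabdomyolysis (SD, n = 2), a difference of -0.959 percentage points (exact p = 0.1, the smallest that 2 against 3 libraries allow).

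**Figure D1:**
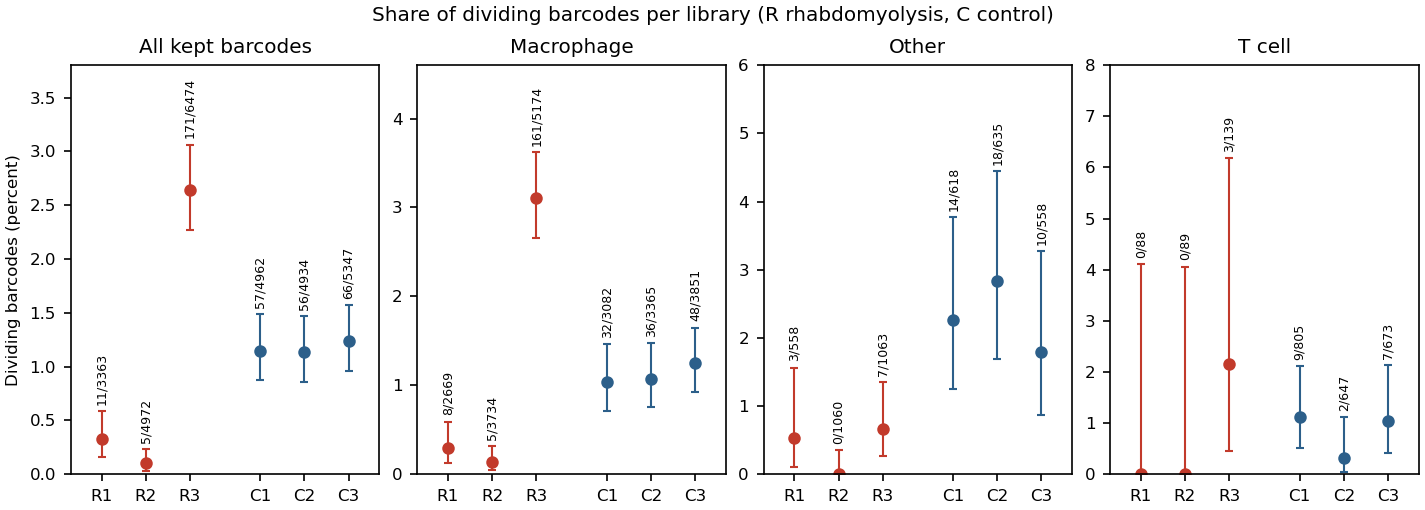
Percent of barcodes that were dividing in each library (points, with the number dividing and the exact 95% binomial interval as bars), for all kept barcodes and for macrophages, other barcodes and T cells, rhabdomyolysis left of control. Rhabdomyolysis library 3 lies above every control for all barcodes and macrophages (2.64% and 3.11%), while all 3 rhabdomyolysis libraries lie below the controls for other barcodes.

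Macrophages, the phagocytes that make up most of the CD45+ barcodes here, gave most of the dividing barcodes in both groups. The dividing share of macrophages was 8 of 2669 (0.30%), 5 of 3734 (0.134%) and 161 of 5174 (3.11%) in rhabdomyolysis libraries 1, 2 and 3, against 32 of 3082 (1.04%), 36 of 3365 (1.07%) and 48 of 3851 (1.25%) in control libraries 1, 2 and 3. As for all barcodes, rhabdomyolysis libraries 1 and 2 were below and library 3 above every control. The means were 1.18 ± 1.67% in rhabdomyolysis and 1.12 ± 0.112% in control (SD, n = 3 each; exact permutation p = 1), and edgeR's quasi-likelihood test on the numbers of dividing macrophages gave a log2 change of 0.09 ± 1.16 (SE; Benjamini-Hochberg adjusted p = 0.980). Without rhabdomyolysis library 3 that log2 change was -2.45 ± 0.46 (adjusted p = 0.00134). Among macrophages that were not poor in Malat1, the dividing shares were 0.576%, 0.119% and 3.32% in rhabdomyolysis and 0.917%, 0.716% and 0.758% in control, in the same order of libraries. If every UMI of the kept barcodes were free RNA, 37.9 barcodes of rhabdomyolysis library 3 would be expected to meet the rule, beside 171 found. In the controls 4.01 to 9.96 would be expected. In rhabdomyolysis libraries 1 and 2 it would be 0.639 and 0.198, beside 11 and 5 found. These numbers are not a count of false members. By a test of each barcode's profile, 8 of the 171 did not differ from free RNA. In control libraries 1, 2 and 3 such dividing barcodes numbered 2, 2 and 11, and in rhabdomyolysis libraries 1 and 2 they numbered 1 each. The part of free RNA in the difference was not tested. Neutrophils do not divide once they leave the bone marrow, and 2 of the 589 barcodes outside the named lineages with 3 or more neutrophil markers, whatever their other markers, met the rule. Both were among the 131 of rhabdomyolysis library 1, and the median depths of these barcodes were 1876 to 2342 UMIs over the libraries. Over all barcodes the dividing shares of rhabdomyolysis libraries 1 and 2 were no higher than 2 of 589. The Malat1-rich macrophages of library 1 (0.576%) were above 2 of 589 but below the 2 of 131 of their own library. In rhabdomyolysis libraries 2 and 3, 0 of 232 and 0 of 197 neutrophil-like barcodes met the rule. Whether the dividing barcodes of these libraries are dividing cells was not tested.

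T lymphocytes and B lymphocytes gave few dividing barcodes in the injured kidneys. Of the T cells, 0 of 88, 0 of 89 and 3 of 139 (2.16%) were dividing in rhabdomyolysis libraries 1, 2 and 3, against 9 of 805 (1.12%), 2 of 647 (0.309%) and 7 of 673 (1.04%) in control libraries 1, 2 and 3. The zeros allow shares of up to 3.41% and 3.37%, above every control, so a difference in T cells was not detectable at this number of cells (log2 change 0.04 ± 1.36, adjusted p = 0.980 by edgeR's quasi-likelihood test; the sign turned in 8 of the alternatives). The 3 dividing T barcodes of rhabdomyolysis library 3 had a median of 12951 UMIs, 2 of them also met the rule of another lineage and 2 had a top doublet score. No dividing B cell was found among 235 in rhabdomyolysis, which allows up to 1.28%, and 3 among 1009 were found in control.

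The dividing share of the barcodes of no named lineage was lower in every rhabdomyolysis library than in every control library. Their dividing share was 3 of 558 (0.538%), 0 of 1060 (up to 0.283% allowed) and 7 of 1063 (0.659%) in rhabdomyolysis libraries 1, 2 and 3, against 14 of 618 (2.27%), 18 of 635 (2.83%) and 10 of 558 (1.79%) in control libraries 1, 2 and 3. Here the groups did not overlap, with means of 0.399 ± 0.351% in rhabdomyolysis and 2.30 ± 0.522% in control (SD, n = 3 each; exact permutation p = 0.1, the smallest that 3 against 3 allow). The log2 change of -2.51 ± 1.29 did not pass edgeR's quasi-likelihood test (adjusted p = 0.229). It was -3.52 (adjusted p = 0.00241) without rhabdomyolysis library 3 and -1.90 (adjusted p = 0.0307) without rhabdomyolysis library 2. It was -1.15 (adjusted p = 0.994) with the C1q limit of macrophages at 1% and that of B cells at 2 UMIs. The types within this group moved with the result. Of its 2681 barcodes in rhabdomyolysis 746 were classical monocyte-like and 422 neutrophil-like, against 42 and 27 of 1811 in control. The part of this shift was not tested.

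Conventional dendritic cells, the antigen-presenting cells that prime T cells, made up much of the dividing barcodes outside the named lineages in control and none in rhabdomyolysis. These barcodes were typed by at least 3 detected markers, a step chosen after the shares were seen. Among cDC1-like barcodes (Xcr1, Clec9a, Batf3 and others) 0 of 34 divided in rhabdomyolysis and 13 of 202 (6.44%) in control, and among cDC2-like barcodes (Cd209a, Clec10a and others) 0 of 93 in rhabdomyolysis and 10 of 224 (4.46%) in control. With both kinds pooled, none of 25, 36 and 66 barcodes divided in rhabdomyolysis libraries 1, 2 and 3, against 7 of 156 (4.49%), 12 of 153 (7.84%) and 4 of 117 (3.42%) in control libraries 1, 2 and 3. The zeros of single rhabdomyolysis libraries allow 12%, 8.33% and 4.55%, and their sum, 0 of 127, allows up to 2.36%. That sum treats barcodes of different libraries as 1 sample. The exact intervals were 1.82% to 9.03%, 4.12% to 13.3% and 0.939% to 8.52% in control libraries 1, 2 and 3. Those of control libraries 1 and 3 include 2.36%, so counting error alone does not set the sum apart from each control. The difference of the library means was -5.25 percentage points (control 5.25 ± 2.31%, SD, n = 3; exact permutation p = 0.1). The pooled dendritic barcodes had median depths of 10462 UMIs in rhabdomyolysis and 8703 UMIs in control, and 15.0% in rhabdomyolysis and 24.2% in control were poor in Malat1.

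The other types outside the named lineages gave single dividing barcodes. Classical monocyte-like barcodes, which are recruited from blood, had 2 dividing of 746 (0.268%) in rhabdomyolysis and 2 of 42 (4.76%) in control. Barcodes with more neutrophil markers than of any other type had 1 of 422 (0.237%) in rhabdomyolysis and 0 of 27 in control, NK cell-like barcodes had 1 of 141 in rhabdomyolysis and 1 of 245 in control, and barcodes like innate lymphoid cells of type 2 had 0 of 47 in rhabdomyolysis and 0 of 112 in control. A further 6 of 994 (0.604%) in rhabdomyolysis and 12 of 676 (1.78%) in control divided among barcodes that no marker list resolved.

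Macrophages formed a larger and T cells a smaller part of the dividing barcodes in rhabdomyolysis, as they did of all barcodes. Macrophages were 72.7%, 100% and 94.2% of the dividing barcodes in rhabdomyolysis libraries 1, 2 and 3, against 56.1%, 64.3% and 72.7% in control libraries 1, 2 and 3 (means of 89.0 ± 14.4% in rhabdomyolysis and 64.4 ± 8.29% in control, SD, n = 3 each, exact permutation p = 0.2). T cells were 0%, 0% and 1.75% of the dividing barcodes in rhabdomyolysis and 15.8%, 3.57% and 10.6% in control, without overlap (exact p = 0.1). Other barcodes were 27.3%, 0% and 4.09% in rhabdomyolysis and 24.6%, 32.1% and 15.2% in control (exact p = 0.3). Of all kept barcodes, macrophages were 79.4%, 75.1% and 79.9% in rhabdomyolysis and 62.1%, 68.2% and 72.0% in control. T cells were 2.62%, 1.79% and 2.15% in rhabdomyolysis and 16.2%, 13.1% and 12.6% in control. Other barcodes were 16.6%, 21.3% and 16.4% in rhabdomyolysis and 12.5%, 12.9% and 10.4% in control. By edgeR's quasi-likelihood test on the dividing barcodes the macrophage part rose by 0.52 ± 0.20 on the log2 scale (adjusted p = 0.0256), while the T part changed by -2.50 ± 0.84 (adjusted p = 0.0175) and the other part by -2.09 ± 0.56 (adjusted p = 0.00814). Without rhabdomyolysis library 3, which held 171 of the 187 dividing barcodes of its group, none of these passed (macrophage 0.33, T -5.02 and other -0.32, adjusted p = 0.762, 0.585 and 0.762). None passed either without control library 1 (macrophage 0.0816, T and other 0.0570), without Malat1-poor barcodes (T 0.316, macrophage and other 0.145) or thinned to 1000 UMIs (macrophage and T 0.212, other 0.220). The macrophage part also failed without rhabdomyolysis library 2 (0.122). With the replicate number as a block the T part passed (-2.64, adjusted p = 0.0112), and the macrophage and other parts did not (0.39 and -1.41, adjusted p = 0.0691 each).

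The antibody tags, which the rule did not use, were read beside the lineages. F4/80, a surface protein of mouse macrophages, had 10 or more tag UMIs on 161 of 174 dividing macrophages (92.5%) in rhabdomyolysis and on 112 of 116 (96.6%) in control. Of the dividing barcodes outside the named lineages, 7 of 10 in rhabdomyolysis and 15 of 42 in control reached that level. CD3, part of the T cell receptor complex, had 5 or more tag UMIs on 3 of 3 dividing T barcodes in rhabdomyolysis and on 13 of 18 in control. The same CD3 level was reached by 72 of 174 dividing macrophages (41.4%) in rhabdomyolysis and 47 of 116 (40.5%) in control. F4/80 reached 10 UMIs on 2 of the 3 dividing T barcodes in rhabdomyolysis and 5 of 18 in control. Over the pooled barcodes, the CD4 tag had a median of 11.5 UMIs on dividing macrophages in rhabdomyolysis and 3 in control. On the macrophages that did not divide it was 4 in both groups. By library, the medians on dividing macrophages were 5, 18 and 11 in rhabdomyolysis and 5.5, 3.5 and 3 in control. On the macrophages that did not divide they were 2, 3 and 6 in rhabdomyolysis and 4, 4 and 3 in control.

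The balance of the phases in dividing barcodes was read as the ratio of UMIs from the G2 and M phase list to UMIs from the S phase list. The rule chose these barcodes by cycle genes, and the part of that choice in the ratio was not tested. In dividing macrophages its log2 value was -1.06, 1.74 and 0.13 in rhabdomyolysis libraries 1, 2 and 3, against 1.29, 1.35 and 1.16 in control libraries 1, 2 and 3. Rhabdomyolysis libraries 1 and 3 lay below every control, and library 2, with 60 UMIs of one list and 18 of the other from 5 barcodes, above them. The means were 0.270 ± 1.40 in rhabdomyolysis and 1.27 ± 0.0962 in control (SD, n = 3 each), a difference of -1.0 (exact permutation p = 0.4). Without rhabdomyolysis library 2 the difference was -1.73, and with barcodes of at least 2 of the 6 rule genes it was -1.57 (exact p = 0.1 each). Over all dividing barcodes the log2 ratio was -0.79, 1.74 and 0.12 in rhabdomyolysis and 0.69, 1.04 and 0.56 in control, a difference of -0.41 (exact permutation p = 0.7). Calling dividing barcodes after thinning to 1000 UMIs, a setting added after the data were seen, turned the sign of both differences, to 0.14 in macrophages (exact permutation p = 0.9) and 1.5 over all dividing barcodes (exact permutation p = 0.2). Rhabdomyolysis library 2 then had 1 dividing barcode.

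Within the dividing macrophages, 6 of 9 tested genes of MHC class II antigen presentation and 5 of 15 tested genes of G2 and M phase fell in rhabdomyolysis, and 7 of 9 tested genes of glycolysis rose. Of the list for monocyte-derived and injury macrophages, 4 of 11 rose and 2 fell. These levels are UMIs summed over the dividing macrophages of a library, tested with edgeR's quasi-likelihood test with Benjamini-Hochberg adjustment over 1674 genes. The sums rest on 8, 5 and 161 barcodes in rhabdomyolysis libraries 1, 2 and 3 and on 32, 36 and 48 in control libraries 1, 2 and 3; in rhabdomyolysis library 2 a level of 64.5 CPM is 2 UMIs. Of the genes tested, 15.1% were called at an adjusted p under 0.05, 5.44% higher in rhabdomyolysis and 9.62% lower, and the median log2 change of all was 0.00. In such sums a change in which cells are present and a change in the RNA of each cell cannot be told apart.

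The G2 and M phase list had 15 of its 36 genes tested, of which 5 fell and none rose, against the 9.62% lower of all genes, with a median log2 change of -0.86. The rule chose these cells by cycle genes, and the groups met it through different ones. Pclaf was detected in 100%, 60% and 77.0% of the dividing macrophages of rhabdomyolysis libraries 1, 2 and 3, and in 71.9%, 36.1% and 41.7% in control libraries 1, 2 and 3. Ube2c was detected in 62.5%, 40% and 52.8% in rhabdomyolysis and in 78.1%, 72.2% and 79.2% in control. The part of this choice in the changes of cycle genes was not tested. Ccnb2, the cyclin B2 that partners the kinase Cdk1 in mitosis, was at 35.9, 64.5 and 47.4 CPM in rhabdomyolysis libraries 1, 2 and 3, and at 295, 198 and 83.5 CPM in control libraries 1, 2 and 3 (log2 change -2.29 ± 0.44, adjusted p = 0.0032). Cenpa, the histone variant that marks centromeres, was at 47.9, 32.2 and 105 CPM in rhabdomyolysis and at 312, 454 and 225 CPM in control (-2.17 ± 0.37, adjusted p = 0.0013). Every rhabdomyolysis library lay below every control for both genes. Cenpf, a kinetochore protein, was at 12, 129 and 70.5 CPM in rhabdomyolysis and at 246, 363 and 142 CPM in control (-2.18 ± 0.44, adjusted p = 0.0045), again without overlap. Racgap1, which acts in cytokinesis, fell by 1.41 and Cks2, which binds the cyclin-dependent kinases, by 0.99 in log2 (adjusted p = 0.031 each). Stmn1, whose levels are given above, had a log2 change of -1.01 ± 0.26 (adjusted p = 0.018).

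The count without rhabdomyolysis library 3 was 6 lower of 19 tested G2 and M phase genes, and leaving out each library in turn gave 2 to 8 lower. DESeq2 called 3 of these genes lower. Ccnb2 did not pass without control library 1 (adjusted p = 0.0562), nor Stmn1 without control libraries 1 or 2 or rhabdomyolysis library 1 (up to 0.167), and Racgap1 and Cks2 did not pass with 4 and 5 of the 6 libraries left out singly (up to 0.152 and 0.207). The depth of the dividing macrophages moved with the group, with medians of 5155, 2625 and 3457 UMIs in rhabdomyolysis libraries 1, 2 and 3 and of 3440.5, 1634.5 and 2132.5 UMIs in control libraries 1, 2 and 3, and a deeper barcode can reach 3 rule genes at lower levels; the part of depth in the result was not tested. Of the rule genes themselves, which chose the cells and are given as a description, Mki67 was at 83.8, 96.7 and 181 CPM in rhabdomyolysis and at 503, 495 and 292 CPM in control, and Pclaf at 515, 96.7 and 397 CPM in rhabdomyolysis and at 306, 388 and 275 CPM in control. Mki67 was thus below the controls in every rhabdomyolysis library, and Pclaf overlapped between the groups.

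None of the 10 tested S phase genes passed edgeR's test in the dividing macrophages, which the rule chose by cycle genes. The list's median log2 change was 0.10, no gene had an unadjusted p under 0.05, and DESeq2 called none. Dut, which keeps uracil out of DNA, was at 359, 32.2 and 303 CPM in rhabdomyolysis and at 87.5, 190 and 117 CPM in control (log2 change 0.89 ± 0.42, adjusted p = 0.19), and Tyms, the thymidylate synthase, at 275, 96.7 and 260 CPM in rhabdomyolysis and at 137, 149 and 125 CPM in control (0.60 ± 0.31, adjusted p = 0.22). For both, rhabdomyolysis libraries 1 and 3 lay above the controls and library 2, with few UMIs, below them. With barcodes of at least 2 rule genes, 7 of 19 tested S phase genes were higher in rhabdomyolysis. Of the 5 tested replication-dependent histones, Hist1h2ae had a log2 change of -0.92 (adjusted p = 0.049, which was 0.228 without rhabdomyolysis library 1 and missed the threshold with 5 of the 6 libraries left out singly); its near-identical copies may share its UMIs.

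**Figure D2:**
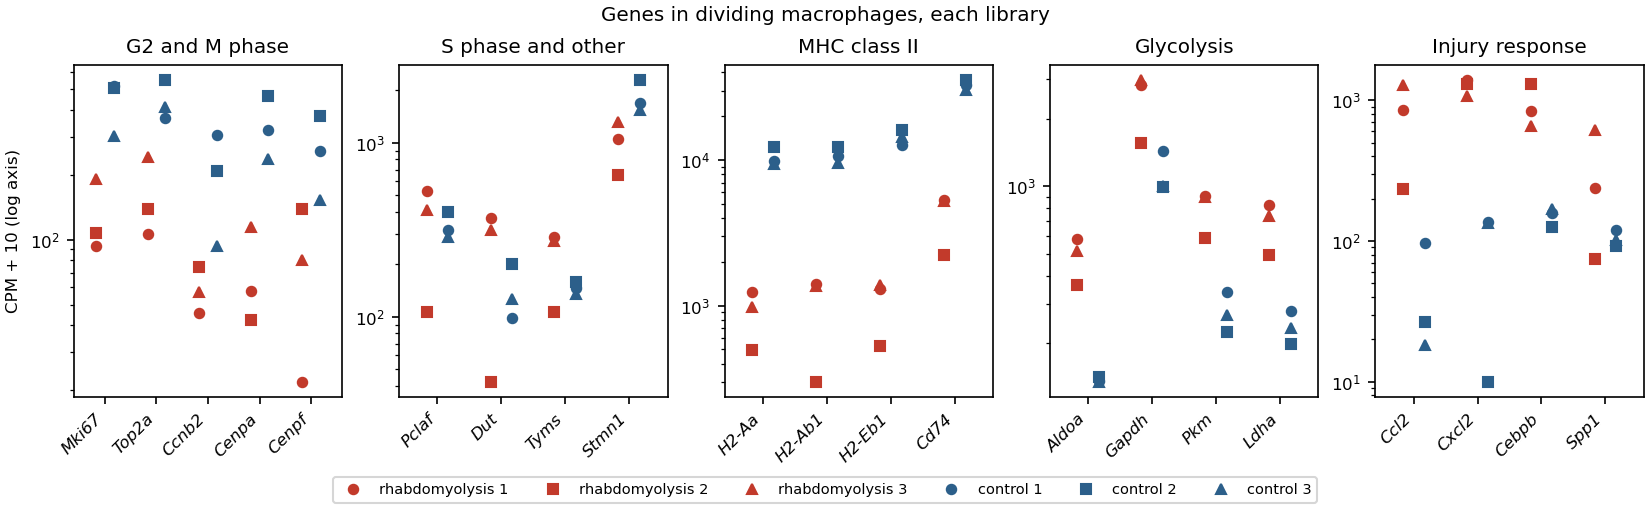
Levels of named genes in the summed dividing macrophages of each library (points, CPM + 10 on a log axis), rhabdomyolysis left of control, in panels for G2 and M phase, S phase and other cycle genes, MHC class II, glycolysis and injury response. H2-Aa, H2-Ab1, H2-Eb1 and Cd74 are separated between the groups in every library, and Aldoa, Pkm and Ldha lie higher in every rhabdomyolysis library.

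MHC class II genes, which present peptides to helper T cells, were the lowest in rhabdomyolysis relative to control among the lists tested on at least 5 genes. Of 9 tested genes 6 fell and none rose, with a median log2 change of -2.12. H2-Aa, the alpha chain of I-A, was at 1232, 484 and 970 CPM in the dividing macrophages of rhabdomyolysis libraries 1, 2 and 3, and at 9857, 12187 and 9381 CPM in those of control libraries 1, 2 and 3 (log2 change -3.68 ± 0.28, adjusted p = 2.4e-06). H2-Eb1, the beta chain of I-E, was at 1292, 516 and 1378 CPM in rhabdomyolysis and at 12634, 16181 and 14338 CPM in control (-3.87 ± 0.30, adjusted p = 2.4e-06). Cd74, the invariant chain that guides class II molecules, was at 5289, 2225 and 5206 CPM in rhabdomyolysis and at 32555, 35266 and 30338 CPM in control (-3.12 ± 0.29, adjusted p = 1.6e-05). All 3 genes were without overlap by a wide margin, and H2-Ab1 fell as they did (-3.50 ± 0.36, adjusted p = 2.2e-05). H2-DMa and H2-DMb1, which load the peptides, fell by 1.36 (adjusted p = 0.019) and 2.12 (adjusted p = 0.00039) on the log2 scale. Ctss, the protease cathepsin S that trims the invariant chain, was at 2441, 3451 and 2614 CPM in rhabdomyolysis and at 1667, 2409 and 2103 CPM in control (0.26 ± 0.24, adjusted p = 0.54). H2-DMa did not pass with 5 of the 6 libraries left out singly (adjusted p up to 0.101, without rhabdomyolysis library 1).

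Glycolysis, the breakdown of glucose to pyruvate and lactate, went the other way. Of 9 tested genes 7 rose and none fell, against the 5.44% higher of all genes, with a median log2 change of 1.39. Aldoa, the aldolase that splits fructose bisphosphate, was at 574, 355 and 504 CPM in the dividing macrophages of rhabdomyolysis libraries 1, 2 and 3, and at 126, 132 and 125 CPM in those of control libraries 1, 2 and 3 (log2 change 1.75 ± 0.29, adjusted p = 0.0012). Ldha, which turns pyruvate to lactate, was at 814, 484 and 730 CPM in rhabdomyolysis and at 268, 190 and 225 CPM in control (1.41 ± 0.29, adjusted p = 0.0047). Every rhabdomyolysis library was above every control for both. Pkm (pyruvate kinase) was at 897, 580 and 887 CPM in rhabdomyolysis and at 328, 215 and 259 CPM in control (1.39 ± 0.29, adjusted p = 0.0046), and Pgk1, Pgam1 and Eno1 rose by 1.52 (adjusted p = 0.016), 1.47 (0.008) and 1.37 (0.0076) on the log2 scale. Gapdh was at 2824, 1548 and 2956 CPM in rhabdomyolysis and at 1432, 982 and 993 CPM in control (0.94 ± 0.26, adjusted p = 0.024). Without control library 2 the test called 2 of these genes, and leaving out each library in turn gave 2 to 7. Pkm, Ldha and Eno1 were lost only there (adjusted p = 0.0562, 0.0552 and 0.0562), Gapdh with 5 of the 6 libraries (up to 0.214) and Pgk1 with 4 (up to 0.153).

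Chemokines and acute response genes were among those that rose most. Ccl2, which draws monocytes, was at 850, 226 and 1274 CPM in the dividing macrophages of rhabdomyolysis libraries 1, 2 and 3, and at 87.5, 16.5 and 8.35 CPM in those of control libraries 1, 2 and 3 (log2 change 4.12 ± 0.60, adjusted p = 0.000439). Cxcl2, which draws neutrophils, was at 1376, 1290 and 1068 CPM in rhabdomyolysis and at 126, 0 and 125 CPM in control (3.64 ± 0.54, adjusted p = 0.000477). Cebpb, a transcription factor of the inflammatory response in myeloid cells, was at 826, 1290 and 651 CPM in rhabdomyolysis and at 148, 116 and 159 CPM in control (2.45 ± 0.35, adjusted p = 0.00035). These 3 genes did not overlap between the groups. AA467197 had the largest log2 change by the naming rule (5.26 ± 0.58, adjusted p = 6.09e-05), with 2692, 3999 and 1561 CPM in rhabdomyolysis and 137, 8.25 and 16.7 CPM in control. Msr1, a scavenger receptor, was at 108, 322 and 135 CPM in rhabdomyolysis and at 0, 24.8 and 0 CPM in control, where it had 3 UMIs in all (adjusted p = 0.00377). Capg, which caps actin filaments, rose by 3.06, the chemokine receptor Ccr1 by 2.97, Ybx3 by 2.55, Anxa3 by 2.18 and Mrto4 by 2.15 on the log2 scale. The feedback inhibitors Socs3 (of cytokine signalling) and Nfkbia (of NF-kappa B) rose by 3.19 (adjusted p = 0.0118) and 2.21 (adjusted p = 0.0145). Socs3 did not pass without control library 1 or 2 (up to 0.0725), Nfkbia without control library 2 or 3 (up to 0.0963), and Mrto4 without control library 2 or rhabdomyolysis library 3 (up to 0.102).

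Among the 11 tested genes of the list for monocyte-derived and injury macrophages, 4 rose (Ccl2, Cxcl2, Mt1 and Spp1) and 2 fell (Ccr2 and Cd9), with a median log2 change of 0.38. Spp1, the secreted matrix protein osteopontin, was at 227, 64.5 and 600 CPM in the dividing macrophages of rhabdomyolysis libraries 1, 2 and 3, and at 109, 82.5 and 91.8 CPM in those of control libraries 1, 2 and 3 (log2 change 1.77 ± 0.46, adjusted p = 0.018). The groups overlapped for Spp1, since rhabdomyolysis library 2 lay below the controls, and it did not pass without rhabdomyolysis library 3 (adjusted p = 0.491) or without any 1 of the controls. Ccr2, the Ccl2 receptor of blood monocytes, fell by 2.25 (adjusted p = 0.0055), and Cd9, a tetraspanin, by 1.10 (adjusted p = 0.049). Single libraries ended the calls of Ccr2 (0.0718 without rhabdomyolysis library 3), Mt1 (0.130 without control library 1) and Cd9 (0.202 without rhabdomyolysis library 1). The neutrophil markers were summed at 19827, 0 and 439 CPM in the dividing macrophages of rhabdomyolysis libraries 1, 2 and 3 and at 16.4, 8.25 and 16.7 CPM in those of control libraries 1, 2 and 3, and none of the 10 passed the filter on low counts.

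Genes of the resident kidney macrophage fell more often than they rose. Of 23 tested genes of that list, which shares 4 genes with the MHC class II list and holds the 3 C1q genes of the lineage rule, 11 fell and 1 rose. Cx3cr1, the fractalkine receptor, was at 108, 0 and 153 CPM in rhabdomyolysis and at 328, 470 and 392 CPM in control (log2 change -1.90, adjusted p = 0.0045). Adgre1, which codes for F4/80, was at 108, 96.7 and 85.1 CPM in rhabdomyolysis and at 159, 206 and 234 CPM in control (-1.33, adjusted p = 0.011), without overlap. Tmem176a and Tmem176b fell by 3.0 (adjusted p = 0.000105) and 2.78, Ms4a7 by 1.78, the receptor kinase Axl by 1.59 and the transcription factor Maf by 1.54 on the log2 scale. Itgam, the integrin chain CD11b, rose by 2.01 (adjusted p = 0.009). Leaving out rhabdomyolysis library 3, Adgre1 (adjusted p = 0.196), Axl (0.0627), Ms4a7 (0.0687) and Maf (0.119) did not pass, and without control library 1 Itgam did not (0.0622).

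The largest falls by the naming rule also held the heat shock gene Hspa1a, often induced by tissue digestion, with 0, 0 and 6.08 CPM in rhabdomyolysis and 377, 743 and 242 CPM in control (log2 change -6.52 ± 0.63, adjusted p = 1.71e-05; 5 UMIs in rhabdomyolysis and 188 in control). Fxyd2, a sodium pump subunit of kidney tubules, fell by 5.07 on the log2 scale (5 UMIs in rhabdomyolysis and 75 in control), and the kidney tubule markers summed to 47.9, 64.5 and 8.51 CPM in rhabdomyolysis and to 208, 173 and 1244 CPM in control. It was the only tubule marker that passed the filter on low counts, and the part of tubule RNA in the other results was not tested. Selenop, a selenium carrier, was lower by 3.12 in log2, at 71.8, 129 and 80.2 CPM in rhabdomyolysis and 492, 916 and 492 CPM in control. Gm26740 fell by 3.41, Clec4b1 by 3.22, Ramp1 by 3.16 and Arhgap17 by 2.89 on the log2 scale. Gm26740 did not pass without rhabdomyolysis library 3 (adjusted p = 0.0599) and Arhgap17 without control library 1 (0.0622). The interferon-induced gene Ifi27l2a fell by 1.87 (adjusted p = 0.000122), 1 of 5 tested genes of the type I interferon list, and Jun and Klf2 fell by 1.61 (adjusted p = 0.00368) and 1.63 (adjusted p = 0.0231), the last up to 0.426 without rhabdomyolysis library 3. Hspa1a has a near-identical copy, Hspa1b, that can share its UMIs. None of the 22 ribosomal protein genes passed edgeR's test, with 1 at an unadjusted p under 0.05 and none called by DESeq2.

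**Figure D3:**
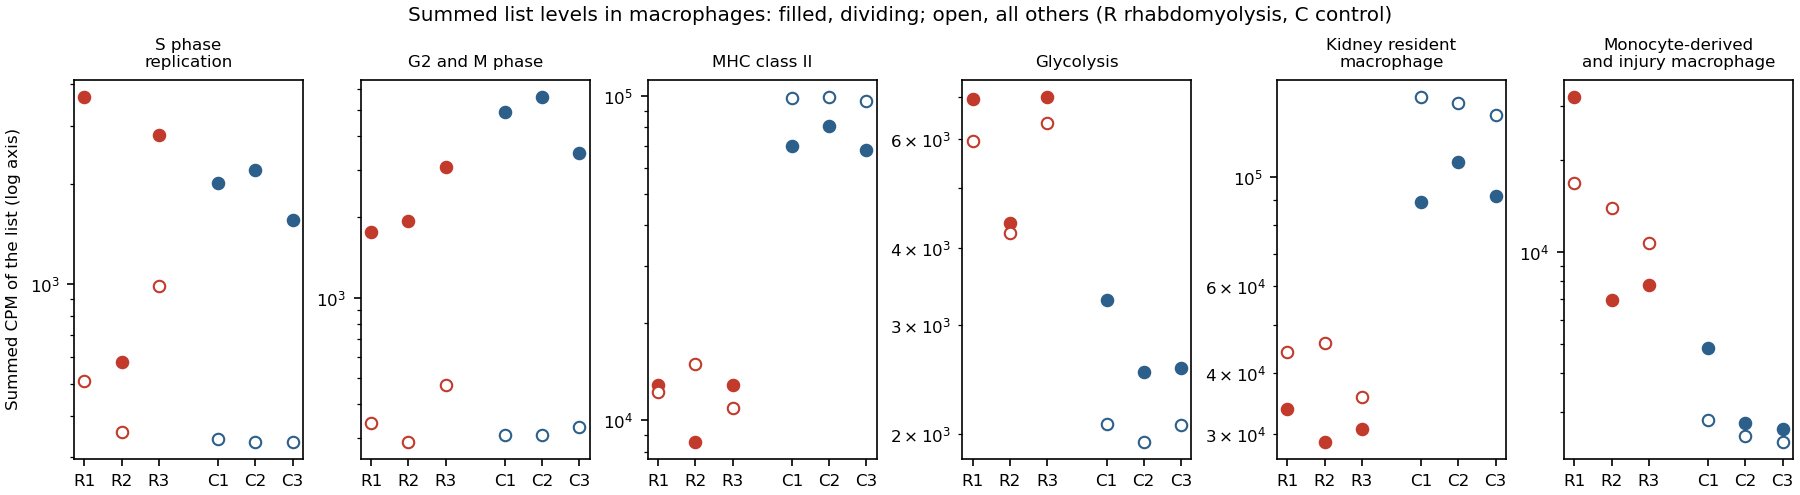
Summed level of 6 gene lists (CPM, log axes) in the dividing macrophages (filled points) and in all other macrophages (open points) of each library, rhabdomyolysis left of control. In both kinds of macrophage the MHC class II and resident lists lie lower and the glycolysis and injury lists higher in every rhabdomyolysis library, while the S phase and G2 and M phase lists lie higher in dividing cells, which the rule selected.

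The changes of antigen presentation and glycolysis in dividing macrophages were close in size to those in the macrophages that did not divide. The MHC class II list summed to 12803, 8578 and 12882 CPM in the dividing macrophages of rhabdomyolysis libraries 1, 2 and 3, and to 69998, 81053 and 67953 CPM in those of control libraries 1, 2 and 3. In the other macrophages it summed to 12218, 14913 and 10904 CPM in rhabdomyolysis and to 98209, 99300 and 96774 CPM in control. The glycolysis list summed to 6964, 4386 and 7007 CPM in dividing macrophages of rhabdomyolysis and to 3291, 2525 and 2562 CPM in those of control, and in the other macrophages to 5938, 4232 and 6353 CPM in rhabdomyolysis and to 2079, 1944 and 2073 CPM in control.

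Whether the change between rhabdomyolysis and control differed between dividing and other macrophages was tested as an interaction in edgeR, with the library as a block, over 10365 genes. An interaction below 0 means that the log2 change of rhabdomyolysis over control was lower in dividing cells, whatever its size or direction there. The test called 0.666% of the genes, 0.0289% above 0 and 0.637% below 0, and the median over all genes was -0.14. No MHC class II gene was called of 13 tested (0 at an unadjusted p under 0.05 and 0 by DESeq2; median 0.09). No glycolysis gene was called of 18 (3 below 0 at an unadjusted p under 0.05, 1 by DESeq2; median -0.41), and none of 28 resident genes (1 at an unadjusted p under 0.05, 0 by DESeq2). A p that misses the threshold does not show that the changes were alike.

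Spp1 had the most negative interaction among the genes that met the naming rule. It was at 227, 64.5 and 600 CPM in the dividing and at 1717, 489 and 1474 CPM in the other macrophages of rhabdomyolysis libraries 1, 2 and 3, and at 109, 82.5 and 91.8 CPM in the dividing and 28.8, 20.1 and 15.9 CPM in the other macrophages of control libraries 1, 2 and 3. Dividing macrophages thus held less Spp1 than the others in every rhabdomyolysis library and more in every control library. The difference of dividing from other macrophages in log2(CPM + 10) was -2.86, -2.74 and -1.28 in rhabdomyolysis and 1.62, 1.62 and 1.97 in control. The interaction in edgeR was -4.46 ± 0.49 (adjusted p = 5.81e-16), between -5.64 and -3.86 with each library left out in turn. The p-values of this test rest on a spread pooled over genes, so they do not measure each gene's own spread between libraries. The dividing sums of rhabdomyolysis libraries 1 and 2 also hold only 8 and 5 barcodes. S100a4, a calcium-binding protein of motile and recruited myeloid cells, had an interaction of -2.83 (adjusted p = 5.50e-09), which DESeq2 did not call (adjusted p = 0.379), with 0 CPM in the dividing macrophages of rhabdomyolysis library 2. Cd9 had -2.12 (adjusted p = 0.000131), S100a11 -2.14 (0.000102), Plp2 -2.16 (0.000303), S100a10 -2.0 (0.000900) and Ube2l6 -2.30 (0.0345), and Gm34455 had 2.22 (0.0172). These signs do not stand for 1 kind of change. Cd9 was at 156, 96.7 and 342 CPM in the dividing macrophages of rhabdomyolysis and 432, 371 and 534 CPM in those of control. It was at 440, 208 and 366 CPM in the other macrophages of rhabdomyolysis and 192, 162 and 237 CPM in those of control. Ube2l6 was at 12, 0 and 15.8 CPM in the dividing macrophages of rhabdomyolysis and 71.1, 57.8 and 83.5 CPM in those of control. It was at 24.7, 32.5 and 38.6 CPM in the others of rhabdomyolysis and 35.1, 34.1 and 45.5 CPM in those of control. Gm34455 was lower in every rhabdomyolysis library in the other macrophages (24.5, 93.3 and 16.2 CPM in rhabdomyolysis and 175, 169 and 133 CPM in control) and overlapped in the dividing ones (12, 193 and 29.2 CPM in rhabdomyolysis and 38.3, 66.0 and 33.4 CPM in control). Without control library 1 the test called Spp1, S100a4 and Cd9 of these, while the adjusted p was 0.120 for S100a11, 0.509 for Plp2, 1 for S100a10, 0.458 for Ube2l6 and 0.442 for Gm34455; the last 2 were also lost with 3 other libraries. Cycle genes such as Lmnb1, Cks1b and Spc24 also had negative interactions, but the rule selected the dividing cells on genes of that kind, so their values are not read here.

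Over all dividing barcodes together, the comparison mixes lineages and was run on rhabdomyolysis libraries 1 and 3 against the 3 controls, those with at least 10 dividing barcodes. It called 16.6% of 4169 genes, 7.48% higher and 9.14% lower in rhabdomyolysis. Of the dendritic cell markers, 6 of 7 tested for cDC1 and 2 of 4 tested for cDC2 fell and none rose. The cDC2 markers summed to 248 and 574 CPM in the dividing barcodes of rhabdomyolysis libraries 1 and 3 and to 852, 1177 and 285 CPM in those of control libraries 1, 2 and 3, so these sums overlapped. Cd209a, a lectin of cDC2, had 0 UMIs in rhabdomyolysis libraries 1 and 3 and 273 in the controls, at 208, 541 and 61.7 CPM in control libraries 1, 2 and 3. Clec9a and Xcr1, receptors of cDC1, had 0 UMIs in rhabdomyolysis and 56 and 52 UMIs in control. Cd209a (adjusted p = 0.0516) and Xcr1 (0.0701) did not pass without rhabdomyolysis library 3. Ciita, the transactivator of MHC class II, was at 0 and 5.48 CPM in rhabdomyolysis libraries 1 and 3 and at 122, 137 and 47.4 CPM in control (log2 change -4.35, adjusted p = 0.000578). Of the other listed markers, 5 of 9 tested T cell and 3 of 3 tested B cell genes fell and none rose.

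Genes of recruited myeloid cells stood at the other end. S100a8 and S100a9, the calprotectin subunits of neutrophils and monocytes, were at 9292 and 7622 CPM in the dividing barcodes of rhabdomyolysis library 1 and at 139 and 245 CPM in those of library 3, with 0 UMIs in control. Chil3, a chitinase-like protein of monocytes, was at 2504 and 382 CPM in rhabdomyolysis libraries 1 and 3, also with 0 UMIs in control. These levels differ widely between the 2 rhabdomyolysis libraries, and those of library 1 come from 11 barcodes. Ccl7, a monocyte chemokine, had 433 UMIs in rhabdomyolysis, at 666 and 401 CPM, and 1 UMI in control, and Fn1, fibronectin, 74 UMIs in rhabdomyolysis and 1 in control. Rhabdomyolysis library 2, left out of this test, had 0 CPM of S100a8, S100a9, Chil3 and Fn1 and 32.2 CPM of Ccl7. Of the injury list, 11 of 18 tested genes rose and none fell.

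Cycle genes were also compared over all barcodes of each lineage, dividing or not, summed per library, which does not depend on the rule for dividing cells. In macrophages, where 23% of 11065 genes rose and 20.7% fell (43.7% called), 15 of 32 S phase genes rose and none fell, with a median log2 change of 1.38. Chaf1b, which places histones on new DNA, was at 12.3, 10.5 and 21.6 CPM in rhabdomyolysis libraries 1, 2 and 3, and at 3.08, 3.07 and 2.68 CPM in control libraries 1, 2 and 3 (log2 change 2.65 ± 0.31, adjusted p = 0.00055). Tipin, of the replication fork protection complex, was at 38.8, 33.3 and 69.1 CPM in rhabdomyolysis and at 18.0, 15.6 and 13.9 CPM in control (1.89 ± 0.28, adjusted p = 0.00131). Mcm6, a subunit of the replicative helicase, was at 36.5, 19.6 and 78.1 CPM in rhabdomyolysis and at 16.3, 17.1 and 15.5 CPM in control (1.77 ± 0.43, adjusted p = 0.0109). These 3 genes were higher in every rhabdomyolysis library, including libraries 1 and 2, whose share of dividing macrophages was below the controls. They do not stand for the whole list in library 2. In the macrophages that did not divide, the list summed to 509, 356 and 987 CPM in rhabdomyolysis and to 340, 333 and 333 CPM in control. Library 2 thus lay close to the controls. Dut rose by 1.72 (adjusted p = 0.00539) and Mcm3 by 1.36 (adjusted p = 0.0371, up to 0.117 without control library 2) on the log2 scale.

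The G2 and M phase genes of macrophages did not move as the S phase genes did. Of 31 tested, 2 rose (Cks2 by 0.78, adjusted p = 0.0366, and Ube2s by 0.97, adjusted p = 0.0131) and none fell, with a median log2 change of 0.22. Cks2 was lost with 4 of the 6 libraries left out singly (up to 0.142) and Ube2s without control library 1 or 2 (up to 0.0643). Mki67 was at 1.59, 1.31 and 13.3 CPM in the macrophages of rhabdomyolysis libraries 1, 2 and 3, and at 14.6, 9.22 and 6.75 CPM in those of control libraries 1, 2 and 3 (-0.50, adjusted p = 0.598), so that rhabdomyolysis libraries 1 and 2 lay below every control and library 3 among them. Stmn1 had a log2 change of 0.76 (adjusted p = 0.249). Without rhabdomyolysis library 3, 13 G2 and M phase genes were lower and 1 was higher, and 11 S phase genes were higher; without rhabdomyolysis library 2, 30 S phase genes were higher, and without control library 2, 8 were. The cell cycle inhibitor Cdkn1a (p21) was at 285, 342 and 172 CPM in the macrophages of rhabdomyolysis and at 51.3, 56.3 and 63.8 CPM in those of control (2.52 ± 0.30, adjusted p = 0.000588), with library 3 the lowest of its group and above every control. Cdkn1a does not stand for inhibitors as a whole. Of 18 tested genes of the list for CDK inhibitors and quiescence, 2 rose and 6 fell, with a median log2 change of -0.57.

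In the barcodes of no named lineage, cycle genes fell in both phases. There 20.9% of 10103 genes rose and 20.6% fell (41.6% called), while 21 of 29 S phase genes and 15 of 22 G2 and M phase genes fell, with medians of -1.12 and -1.50, and 1 G2 and M phase gene rose (Cks2, 1.04). Mki67 was at 2.15, 2.56 and 4.02 CPM in rhabdomyolysis libraries 1, 2 and 3, and at 19.3, 21.1 and 13.3 CPM in control libraries 1, 2 and 3 (log2 change -2.27 ± 0.29, adjusted p = 0.000186). Pclaf was at 0.860, 0.214 and 4.35 CPM in rhabdomyolysis and at 42.3, 32.6 and 28.9 CPM in control (-3.74 ± 0.50, adjusted p = 0.000252). All rhabdomyolysis libraries lay below all controls for both, and Top2a (-1.74), Birc5 (-3.10), Stmn1 (-2.37), Mcm5 (-1.74), Tk1 (-2.58) and Ccnb2 (-2.73) fell too. Cenpf had 2 UMIs in rhabdomyolysis and 90 in control. Ccnd1, the cyclin D1 of G1, was at 45.6, 26.1 and 82.1 CPM in rhabdomyolysis and at 288, 336 and 356 CPM in control (-2.40, adjusted p = 0.000223), and Cdkn1a rose by 2.34. Of 18 tested genes of the list for CDK inhibitors and quiescence, 5 rose and 2 fell here, with a median of -0.06. The makeup of these barcodes moved with the result, since 9 of 9 cDC1 markers fell and 8 of 8 tested neutrophil markers rose; its part was not tested.

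**Figure D4:**
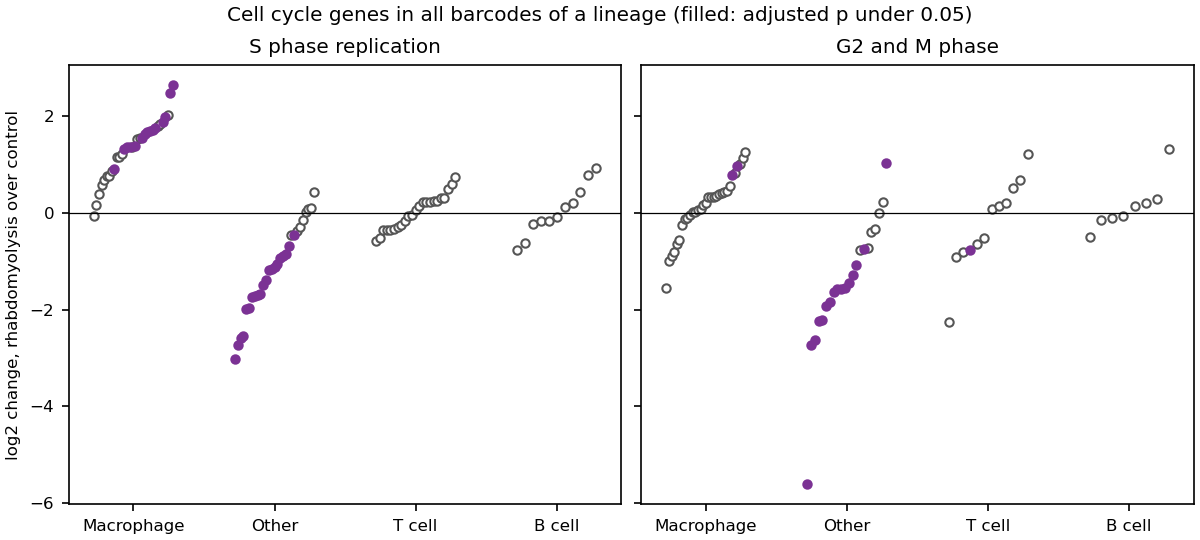
Log2 change (rhabdomyolysis over control) of each tested S phase and G2 and M phase gene in the summed barcodes of macrophages, other barcodes, T cells and B cells; each point is a gene, filled where the adjusted p was under 0.05. In macrophages 15 of 32 S phase genes rose, and in the other barcodes 21 of 29 S phase and 15 of 22 G2 and M phase genes fell.

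Lymphocytes showed little change in cycle genes at this depth. In T cells, where 11% of 8766 genes were called (6.57% higher and 4.43% lower), none of 23 S phase genes passed edgeR's test (0 at an unadjusted p under 0.05, 0 by DESeq2) and 1 of 12 G2 and M phase genes fell (Smc4, a condensin subunit, -0.77, adjusted p = 0.0409, up to 0.123 with single libraries left out). Mki67 in T cells was at 3.36, 0 and 7.79 CPM in rhabdomyolysis and at 22.1, 11.7 and 28.9 CPM in control (log2 change -2.02, adjusted p = 0.0906), without overlap. Klf2, a factor of quiescent T cells, rose by 1.66 (adjusted p = 2.75e-05) and Cdkn1a by 3.27 (adjusted p = 0.000699). Of 17 tested genes of the list for CDK inhibitors and quiescence, 6 rose and 2 fell. In the same T cell sums, 15 of 22 tested genes of the list for monocyte-derived and injury macrophages rose and 2 fell. The part of RNA from other cells in these rises was not tested. In B cells, where 0.806% of 5706 genes were called (0.561% higher and 0.245% lower), none of 11 S phase genes (1 higher and 1 lower at an unadjusted p under 0.05) and none of 8 G2 and M phase genes (1 higher at an unadjusted p under 0.05) passed edgeR's test, and DESeq2 called none.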

How the data were processed

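RNA of CD45-sorted kidney cells was counted in 3 rhabdomyolysis and 3 control libraries made with a droplet 3′ kit, grouped by their titles. The authors deposited raw UMI counts for 32285 genes and 6 antibody tags over all barcodes, made with Cell Ranger 4 per the file headers and on build mm10 per the submitters' processing notes; the annotation is not given in the sources used here. Barcodes, lineages and dividing cells were taken by the stated thresholds, with no doublets or free RNA removed. The members, gene lists and tests were chosen with earlier results of these data known.

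UMIs were summed per library and tested with edgeR 4.0.16 (TMM, filterByExpr, glmQLFit and glmQLFTest, adjusted p under 0.05; R 4.3.3, limma 3.58.1), with DESeq2 1.42.0 as an alternative. Numbers of dividing cells were tested in edgeR with the logarithm of the barcodes as an offset, over the 3 lineages with 5 or more dividing cells. Shares and ratios were tested by exact permutation over libraries, where 3 against 3 cannot go below p = 0.1. Python 3.11.15, NumPy 2.4.6, SciPy 1.17.1, pandas 2.3.3 and matplotlib 3.10.9 were used. The planned minimum of 20 dividing cells per library left 1 rhabdomyolysis library, so all dividing cells were tested with the planned minimum of 10, and, chosen after seeing the data, dividing macrophages and the interaction with no minimum; the sums over whole lineages, the types of other barcodes, the phase ratio of macrophages and the phase ratios after thinning were also added then. Alternatives were other thresholds, no Malat1-poor, free-RNA-like or doublet barcodes, thinning to 1000 UMIs, other scaling and filters, a replicate block and leaving out each library. Intervals are exact binomial (95%), a count of 0 allows 3 counts, and both cover counting error only.

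Genes were named by rule: adjusted p under 0.05, average log2 CPM of at least 5, no overlap between groups, not mitochondrial, ribosomal, immunoglobulin or hemoglobin, the 12 largest changes each way, besides genes of the lists and the rule as examples; for the dividing barcodes as a whole, examples of these are named. The numbers of the libraries were checked as pairs: same-numbered libraries deviated together in all macrophages (correlations 0.177, 0.272 and 0.291) but not in dividing macrophages (0.0102, 0.0678 and 0.0711), and the labels give no shared source. In all T cells the correlations were 0.166, 0.132 and 0.089, and in all barcodes of no named lineage 0.126, 0.0739 and 0.0549. In both of these sets each library matched its own number best. The main tests did not use the pairs. On simulated data the dividing macrophage test recovered 139 of 153 genes changed by a log2 size of 2 (90.8%) among 1616 tested, with 5 false calls, and the test of all dividing cells 168 of 200 (84%) among 4033, with 8. For dividing macrophages, 200 genes had been changed, and the rest did not pass the filter on low counts. The simulation gave all genes and libraries the same dispersion and changed only genes with enough expected UMIs. Its rates are thus not the error rates of these data.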

Additional observations from a re-analysis of the deposited data

Results flagged for a closer look

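The change between rhabdomyolysis and control differed between dividing and other macrophages, by the interaction test in edgeR, for the named genes Spp1 (-4.46), S100a4 (-2.83), Ube2l6 (-2.30), Plp2 (-2.16), S100a11 (-2.14), Cd9 (-2.12) and S100a10 (-2.0), where the log2 change was lower in dividing cells, and for Gm34455 (2.22), where it was higher in them. Spp1, Cd9 and S100a4 passed in edgeR with each library left out in turn, while DESeq2 on all libraries did not call S100a4. The edgeR p-values of this test rest on a spread pooled over genes.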

How the results depend on the processing

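Depth, the 5 to 11 dividing barcodes of rhabdomyolysis libraries 1 and 2 and the large number in library 3 limit all results. Leaving out each library in turn, the difference in share ran from -0.959 to 0.312 percentage points, and it was 0.161 among barcodes unlike free RNA. The log2 ratio of G2 and M to S UMIs differed by -1.10 to 0.163 over all dividing cells and by -1.73 to -0.334 in macrophages, and by 1.5 and 0.135 with dividing barcodes called after thinning. The T rate ran from -5.01 to 0.57 and was -0.00176 and -0.0456 with at least 2 and 4 rule genes, -1.28 without doublets, -3.35 thinned, -1.0 without barcodes of several lineages and -0.53 with the replicate block. The macrophage rate ran from -2.45 to 0.62, -0.32 thinned and -1.18 with the replicate block, and the other rate from -3.52 to -1.90, with -1.15 at the stricter lineage limits. In the makeup, the T part ran from -5.02 to -2.07 (-0.82 without Malat1-poor barcodes, -3.99 thinned), the macrophage part from 0.33 to 0.63 (0.69, 0.47, and 0.39 with the block) and the other part from -2.51 to -0.32 (-1.04, -1.40, and -1.41 with the block). Called genes numbered 251 to 740 in all dividing cells with single libraries left out (271 by DESeq2, 563 with the replicate block), 116 to 403 in dividing macrophages (158 by DESeq2, 723 and 134 with at least 2 and 4 rule genes, 128 without Malat1-poor barcodes, 221 with the block) and 19 to 270 for the interaction (30 by DESeq2). Over 100 values of named genes, 94 of them called, 1271 of 1440 alternatives kept direction and call, 159 lost the call, 8 gained it and 2 reversed: over all macrophages, Mki67 ran from -2.50 to 0.014 and Stmn1 from -0.16 to 1.17 over the libraries left out, turning without rhabdomyolysis library 2 for Mki67 and library 3 for Stmn1. With the replicate block Racgap1, Maf and Klf2 in dividing macrophages and Smc4 in T cells lost the call and Mki67 in T cells gained it, while 5049 genes were called over all macrophages, where same-numbered libraries deviated together. The cause of these shifts was not tested. Gene tests with a minimum of 20 cells, and those of dividing T, B and other cells, could not be fitted.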
